A study of Haematococcus lacustris with 7 samples.

Results

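The proteasome and ubiquitin pathway of the green alga *H. pluvialis* was examined here in the Gene Ontology (GO) annotation of its assembled transcriptome. Its members are the sequences with at least 1 GO term whose name contains proteasome, proteasomal or ubiquitin. There were 277 such sequences among 6812 annotated sequences (4.07%), and they belonged to 267 Trinity components, the groups of related contigs that the assembler forms. The members had to carry such terms, so the counts of these terms describe the set and do not test it.

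Proteins that a cell no longer needs are marked with ubiquitin, a small protein, and broken down by the proteasome. An activating enzyme, a conjugating enzyme and a ligase pass ubiquitin along to the target, and ubiquitin proteases remove it again. The proteasome has a barrel-shaped core particle, in which rings of alpha subunits enclose rings of beta subunits that hold the cutting sites, and a regulatory particle with ATPases that unfold the target. In land plants, ubiquitin ligases also take part in the signalling of jasmonate and auxin.

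The RNA came from algal cells of a common culture, which was divided into aliquots. The control (N) received no hormone, and the other aliquots received jasmonic acid (JA) or salicylic acid (SA) at 25 mg/L and were sampled after 1, 6 or 24 h. This gave 7 libraries, with 1 library per condition. The GO table describes the assembly of all libraries, with 0 columns that belong to a sample, so that depth, expression levels and the effect of JA or SA on these sequences are not analysed here. Sequences of an assembly are not replicates, and the intervals given below cover counting error only.

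The rule matched 41 of the 3681 terms in the table. Of these, 21 named biological processes, 11 named cellular components and 9 named molecular functions. The members had 450 matched pairs of sequence and term. A single matched term was listed for 155 members, while 79 members had 2, 35 had 3 and 8 had 4. The remaining terms of the members, which the rule did not use, made up 1449 pairs with 332 distinct terms. Only 4 members had no other term.

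The most frequent matched term was ubiquitin-dependent protein catabolic process, the breakdown route as a whole, with 81 sequences. It was followed by proteasome complex with 79 sequences and ubiquitin-protein ligase activity with 60. The core particle terms came next, with 36 sequences for proteasome core complex and 33 for its alpha-subunit complex. The general term for the attachment of ubiquitin, protein ubiquitination, was listed for 25 sequences. Ubiquitin thiolesterase activity, which names the removal of ubiquitin, was listed for 19. At the other end, 12 of the 41 terms were listed for 1 sequence each.

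**Figure D1:**
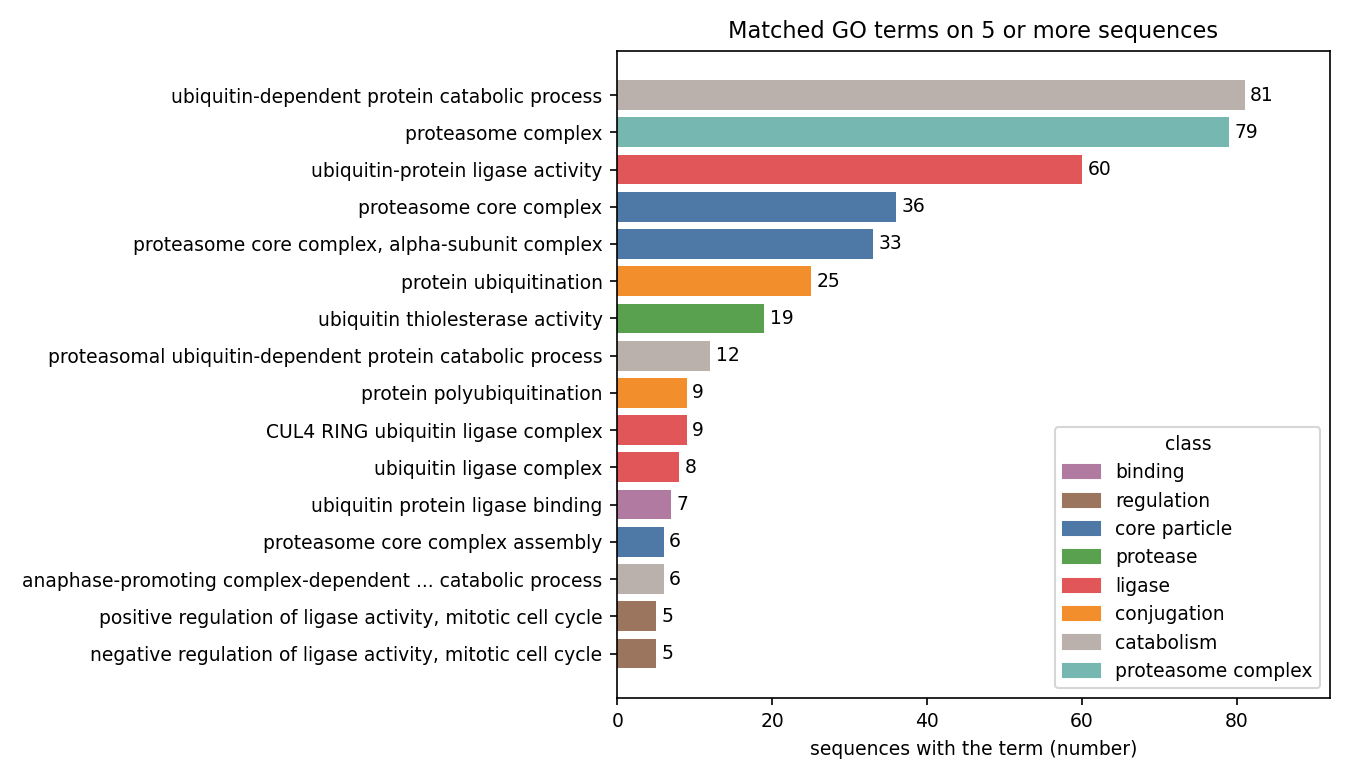
Number of sequences (horizontal axis) for each of the 16 matched GO terms with 5 or more sequences, coloured by class of term. Ubiquitin-dependent protein catabolic process (81 sequences), proteasome complex (79) and ubiquitin-protein ligase activity (60) have the longest bars.

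The matched terms were sorted by their words into 9 classes, and a sequence was counted in every class that its terms named. The core particle class held 75 sequences, the regulatory particle class 4 and the class of proteasome with no particle named 79. On the ubiquitin side, 78 sequences had ligase terms, 40 had conjugation terms and 22 had protease terms. Catabolism terms were listed for 105 sequences, binding terms for 12 and terms for the regulation of ligases or of breakdown for 9. The term free ubiquitin chain polymerization, listed for 1 sequence, fell in no class.

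Few sequences were annotated both with the proteasome and with the enzymes that handle ubiquitin, which follows in part from the sorting. Each term was put only in its first matching class, so the 155 members with a single matched term could not be on both sides. Catabolism terms counted for neither side. A proteasome class was named for 152 members (54.9%), and a ligase, conjugation or protease class for 112 (40.4%). The sequences in common numbered 10, which is 6.58% of the former and 8.93% of the latter. Over all 6812 annotated sequences, the 112 are a smaller share than 6.58%, so the overlap is not low beside the whole table. No sequence with a core particle or regulatory particle term was among these 10, all of which carried the term proteasome complex. This term names no particle, so it does not tell whether the 10 belong to the core or to the regulatory particle. Neither side was named for 23 members.

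Of the 10 shared sequences, 7 had ubiquitin thiolesterase activity and 3 had ubiquitin-protein ligase activity. Within the former, 6 also listed metallopeptidase activity, among them comp1309773_c0_seq1_6, comp338393_c0_seq1_10 and comp53925_c0_seq1_21. In yeast and animals, a metallopeptidase of the regulatory particle removes ubiquitin from the target before it enters the core. The other thiolesterase sequence, comp1393299_c0_seq1_4, listed cysteine-type peptidase activity in its place. The ligase sequences were comp62993_c2_seq1_5, comp9153_c0_seq1_3 and comp998412_c0_seq1_5, and the last 2 of them also listed protein polyubiquitination and response to stress.

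**Figure D2:**
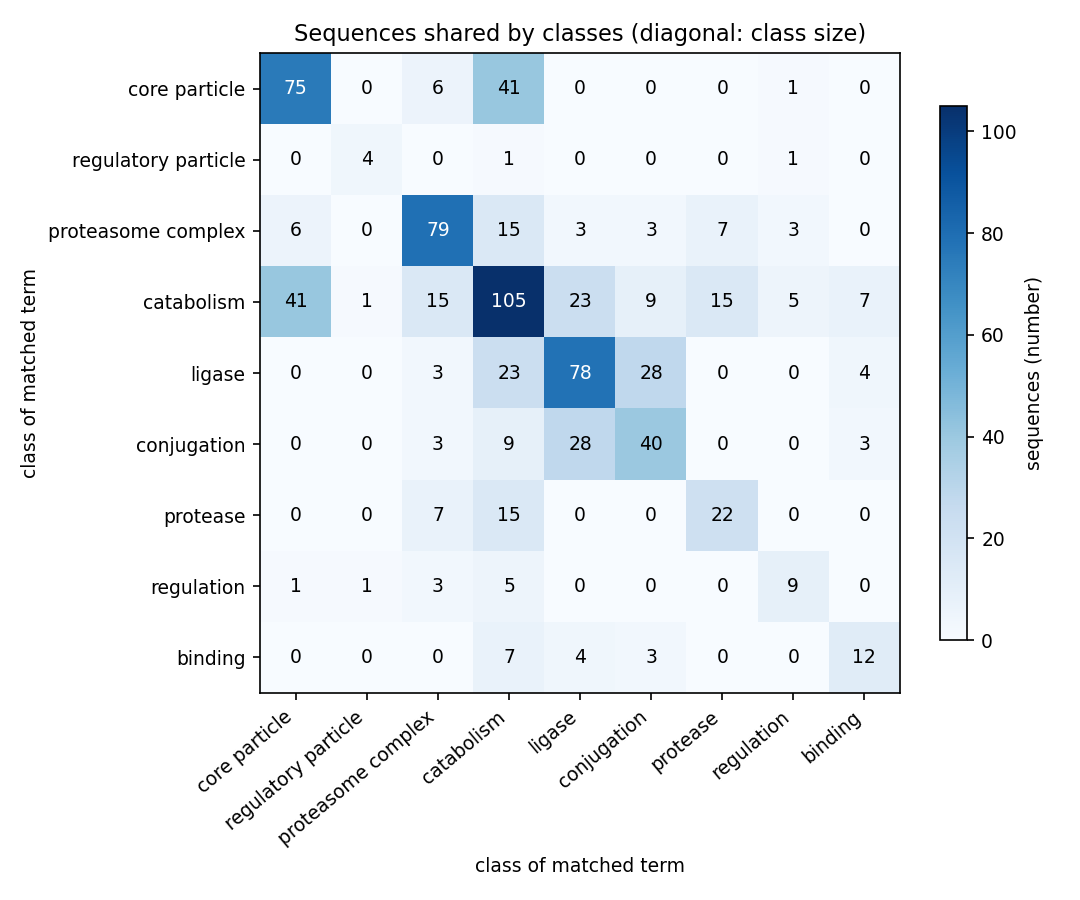
Number of sequences that each pair of term classes has in common (rows and columns are classes, colour and digits give the number, the diagonal gives the class size). The core particle row has 0 sequences in common with ligase, conjugation and protease, and 41 with catabolism, while ligase and conjugation have 28 in common.

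The core particle was described by a term for the whole core and a term for its alpha subunits. Proteasome core complex was listed for 36 sequences (0.528% of the table) and the alpha-subunit complex for 33 (0.484%), with 0 sequences in common. With shares this low, few in common would be found in any case. Terms were counted as listed, without parent terms, so a sequence with the narrower term need not list the wider one. None of the matched terms named the beta subunits, so the 36 sequences cannot be called beta subunits from their terms. The process terms of these sets also differed. Ubiquitin-dependent protein catabolic process was listed for all 33 sequences with the alpha-subunit term and for 0 of the 36 with the core complex term. In contrast, proteolysis involved in cellular protein catabolic process was listed for 34 of these 36 and for 0 of the 33.

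Terms outside the rule were nearly uniform in the core particle. Threonine-type endopeptidase activity, which names the chemistry of the cutting sites in the beta subunits, was listed for all 36 sequences of the core complex term and also for all 33 of the alpha-subunit term. These 69 sequences made up nearly the whole of this term in the table, which has 70. The exception, comp62570_c0_seq3_35, listed it with a transcription term and no proteasome term. Nucleus was listed for all 75 sequences of the core particle class and cytoplasm for 55 of them (73.3%).

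The other 6 sequences of the core particle class carried proteasome core complex assembly and proteasome complex. The former names a process and not a part of the core, and it was placed in the class by its words. Neither the core complex nor the alpha-subunit term was listed for these 6. They had a median of 19.5 terms, compared with 5 for the sequences of either of these terms, and 0 of them had the endopeptidase term. All 6 listed response to heat and response to misfolded protein. In 3 of the 6, with comp11730_c0_seq1_5 as an example, ATP binding and terms for meristems and root caps were also listed. The other 3, such as comp1029749_c0_seq1_1, listed responses to auxin, cytokinin and abscisic acid together with stamen formation and leaf senescence. The unicellular alga has none of these organs.

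Sequences of the regulatory particle were named as such in 4 cases, in 4 components. The sequences comp1087849_c0_seq1_1 and comp1363655_c0_seq1_2 had the same terms, which included SUMO binding and enzyme regulator activity. For comp591960_c0_seq1_3, proteolysis was the only other term. The last, comp1328716_c0_seq1_5, listed terms for the positive and negative regulation of ligase activity in mitosis. None of the 4 listed nucleus, cytoplasm or ATP binding.

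The term proteasome complex held sequences with other functions than the core. Of the 73 sequences with this term and no core particle term, 32 (43.8%) listed nucleoside-triphosphatase activity, the splitting of nucleotides such as ATP. Of these 32, 31 also listed nucleus, 29 cytoplasm and 28 protein catabolic process. A further 19 (26.0%) listed enzyme regulator activity, and only 1 of them listed nucleus and 0 cytoplasm. Metallopeptidase activity was listed for 6 (8.22%) and ligase activity for 3 (4.11%), which left 13 sequences (17.8%) with none of these. These kinds were chosen after their values had been seen.

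On the ubiquitin side, the ligase class was the largest. Ubiquitin-protein ligase activity was listed for 60 of the 78 ligase sequences, in 56 components. Zinc ion binding, a feature of RING finger ligases, was listed for 17 of these 60 (28.3%). A further 26 (43.3%) had ATP binding without zinc ion binding, and 17 had neither. The term was also listed for a sequence annotated as part of a conjugating enzyme, comp837363_c0_seq1_2, which had ubiquitin conjugating enzyme complex, protein polyubiquitination and postreplication repair. Another example, comp55754_c0_seq1_4, listed it with the UBC13-MMS2 complex and postreplication repair. The ligase class thus counts sequences with ligase terms, and not all of them need be ligases. The most matched terms without ligase activity itself were found on comp1324239_c0_seq1_2, which had ubiquitin-ubiquitin ligase activity, the ubiquitin ligase complex and response to UV. The activating enzyme, which starts the cascade, was named on 1 sequence, comp1019041_c0_seq1_2.

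Complexes were named for part of the ligases. The CUL4 RING complex, in which a cullin scaffold holds the ligase, was listed for 9 sequences in 7 components, and 3 of these sequences, all of component comp61241_c0, had rRNA processing as their process term. The general ubiquitin ligase complex was listed for 8 sequences, the SCF complex for 4, the cullin-RING complex for 4 and the Cul3-RING complex for 2. The nuclear ubiquitin ligase complex was listed for comp64783_c0_seq1_48, which also had protein serine/threonine kinase activity and abscisic acid signalling. The anaphase-promoting complex, a ligase that drives the exit from mitosis, was named in the terms of 11 members and of 1 sequence outside the set. The complex itself was a term of 6 of these members, and the others listed only the breakdown process that depends on it. Of the 11 members, 5 belonged to a proteasome class and 6 to the ligase, conjugation or protease classes.

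Conjugation terms overlapped with ligase terms in 28 sequences, which is 70.0% of the former and 35.9% of the latter. Zinc ion binding was listed for 13 of the 40 conjugation sequences. Protein polyubiquitination was listed for 9 sequences, ubiquitination in the course of breakdown for 4, and K11-linked and histone ubiquitination for 2 each.

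Protease terms were listed for 22 sequences in 22 components, and 0 of these had a ligase or conjugation term. Over all 6812 annotated sequences, only 78 had ligase terms and 40 had conjugation terms, so 0 of 22 is near the share of the whole table. Of the 22, 11 (50.0%) had cysteine-type peptidase activity, the chemistry of most ubiquitin proteases, and 6 (27.3%) had the metallopeptidase activity described above. Neither was listed for 5. The term ubiquitin-specific protease activity was found on 4 sequences, of which comp1337849_c0_seq1_7 and comp832382_c0_seq1_4 also had ubiquitin thiolesterase activity. Histone deubiquitination was listed for comp4546_c0_seq1_7, together with the SAGA complex, a coactivator of transcription.

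**Figure D3:**
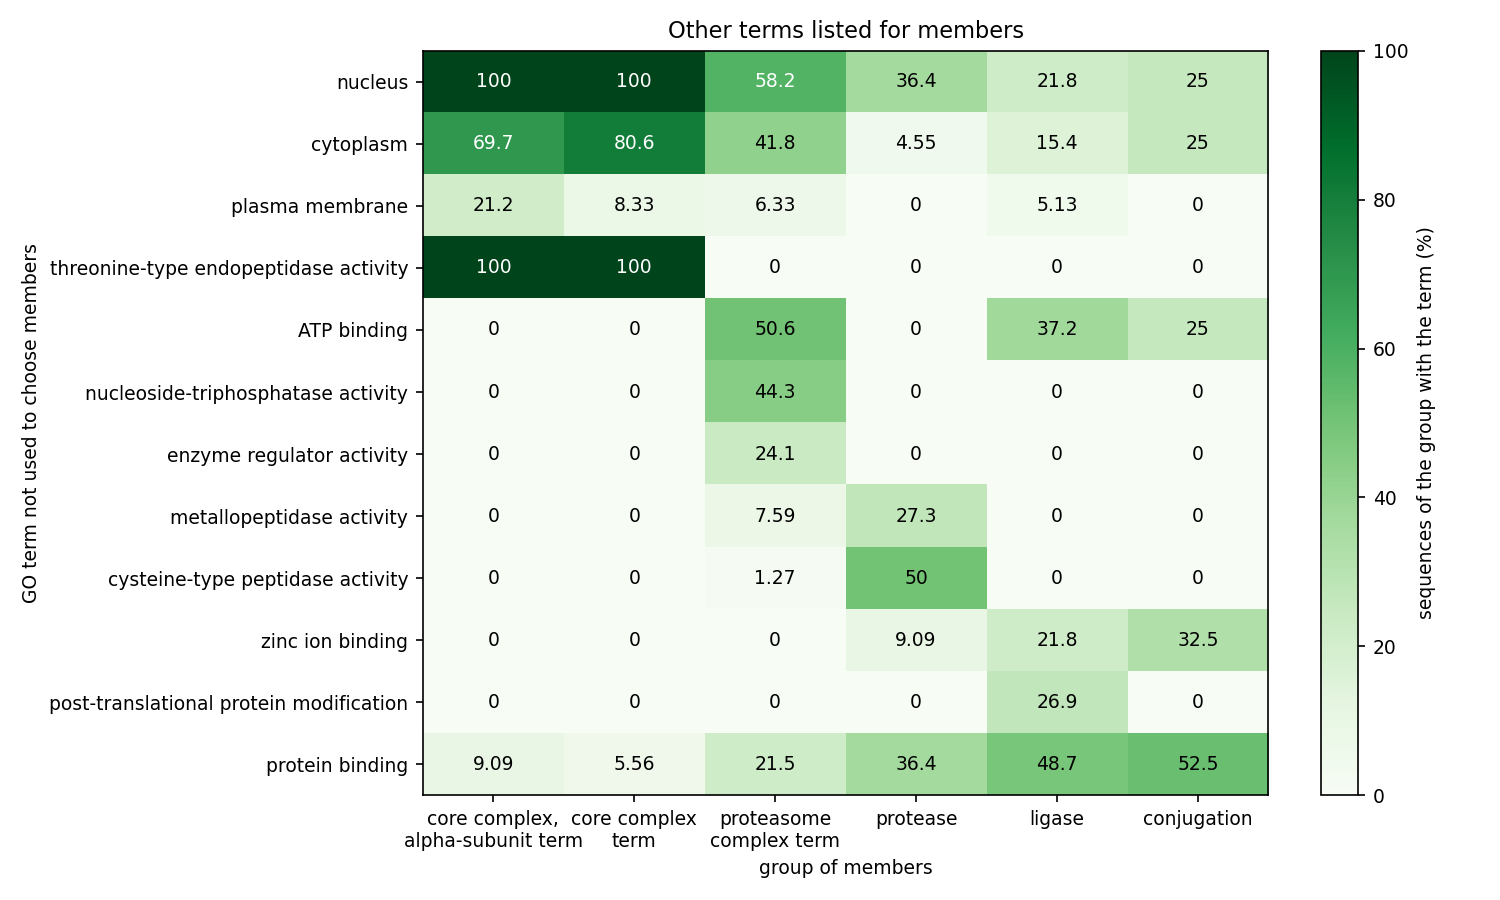
Share of the sequences in 6 groups of members (columns, in %) that list each of 12 GO terms (rows) which the choice of members did not use. Threonine-type endopeptidase activity is at 100% in the core groups and 0% in the other groups, nucleoside-triphosphatase activity reaches 44.3% in the proteasome complex group, and cysteine-type peptidase activity reaches 50.0% among proteases.

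Sequences with ubiquitin-dependent protein catabolic process came from every side of the pathway. Counted in this order, 33 of its 81 sequences had a core particle term, 3 others had proteasome complex, 22 others a ligase term and 14 others a protease term. The remaining 9 had none of these. In 4 of them the same 8 terms were listed, with Ran GTPase binding and RNA export from nucleus, as in comp10008_c0_seq1_12. The pair comp35337_c0_seq1_7 and comp57891_c2_seq1_4 listed auxin and ethylene signalling with chromosome segregation. Among the other catabolism terms, proteasomal ubiquitin-dependent breakdown was listed for 12 sequences, the form that depends on the anaphase-promoting complex for 6, proteasomal protein catabolic process for 3 and targeting to the vacuole through multivesicular bodies for 2.

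Regulation terms were listed for 9 sequences, of which 5 had both the positive and the negative regulation of ligase activity in the mitotic cell cycle. None of the 9 had a ligase or conjugation term, which is near the low share of these classes over the whole table. The sequences comp10949_c0_seq2_4 and comp482998_c0_seq1_13 listed both mitotic regulation terms with proteasome complex, and comp1321889_c0_seq1_4 with proteasome core complex. The regulatory particle sequence comp1328716_c0_seq1_5 described above had them too. Positive regulation of proteasomal breakdown was listed for 2 sequences of component comp64896_c0. Negative regulation of protein ubiquitination and positive regulation of ubiquitin-protein ligase activity, with no cell cycle named, were listed for 1 sequence each.

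Binding terms were listed for 12 sequences. Ubiquitin protein ligase binding was the most frequent with 7, followed by ubiquitin binding with 3, polyubiquitin binding with 2 and proteasome binding with 1. The only sequence with proteasome binding, comp616832_c0_seq1_2, also had ubiquitin binding, damaged DNA binding and nucleotide-excision repair. The latter pair of terms was also listed for comp36946_c0_seq3_3, which had polyubiquitin binding and protein ubiquitination.

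Terms of compartments differed in frequency between the proteasome side and the ubiquitin side. Nucleus was listed for 115 of the 152 sequences in a proteasome class (75.7%, 95% Wilson interval 68.3 to 81.8) and for 23 of the 102 sequences in ligase, conjugation or protease classes only (22.5%, interval 15.5 to 31.6). Over all annotated sequences the share was 13.5%. Among the 15 catabolism sequences on neither side it was 86.7% (13 sequences, interval 62.1 to 96.3). It was 7.87% for 254 sequences with chaperone or protein folding terms and 10.5% for 171 sequences with the term proteolysis, both taken without members. Cytoplasm was listed for 85 (55.9%, interval 48.0 to 63.6) and 17 (16.7%, interval 10.7 to 25.1) of the sequences on these sides, and for 18.3% of all annotated sequences. The chaperone sequences were at 42.1% and the proteolysis sequences at 21.6%, next to 39.7% for all members. Nucleus and cytoplasm together were listed for 99 members (35.7%), compared with 241 sequences (3.54%) in the whole table. The differences were not tested, since sequences with the same terms are not independent. The sides also differ in having any cellular component term at all, which 30 of the 102 sequences lacked and 0 of the 152.

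Plastids and mitochondria were rarely named. Of the terms that name an organelle as a whole, plastid or chloroplast was listed for 2 members (0.722%, 95% Wilson interval 0.198 to 2.59) and for 407 sequences of the table (5.97%). The members were comp244522_c0_seq1_11 and comp395311_c0_seq1_12, which had the same 6 terms with proteasome core complex and plasma membrane. Mitochondrion was listed for 4 members (1.44%), of which 3 had the alpha-subunit term, and for 4.87% of the table. No cellular component term at all was listed for 30 of the 102 sequences on the ubiquitin side only. On the proteasome side the value was 0 of 152, which follows from the choice of members, since proteasome complex, core complex and regulatory particle are themselves cellular component terms.

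Many members had exactly the same set of terms. The 277 members had 136 distinct sets, of which 54 were found on 2 or more sequences and covered 195 members (70.4%). The share was 68.8% over the whole table, 79.5% for the chaperone sequences and 59.1% for the proteolysis sequences. By class it was 89.3% for the core particle, 57.7% for ligases and 47.5% for conjugation, and lowest for the small classes of regulation (22.2%) and binding (16.7%). The largest set, with 25 sequences in 24 components, had the core complex, the endopeptidase, nucleus, cytoplasm and a proteolysis term. The next had 20 sequences in 19 components and held the alpha-subunit complex in place of the core complex and ubiquitin-dependent protein catabolic process in place of the proteolysis term. Then came 13 sequences with the terms for the proteasome complex and nucleoside-triphosphatase activity. A land plant term, leaf morphogenesis, was the only other term of 4 proteasome complex sequences.

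**Figure D4:**
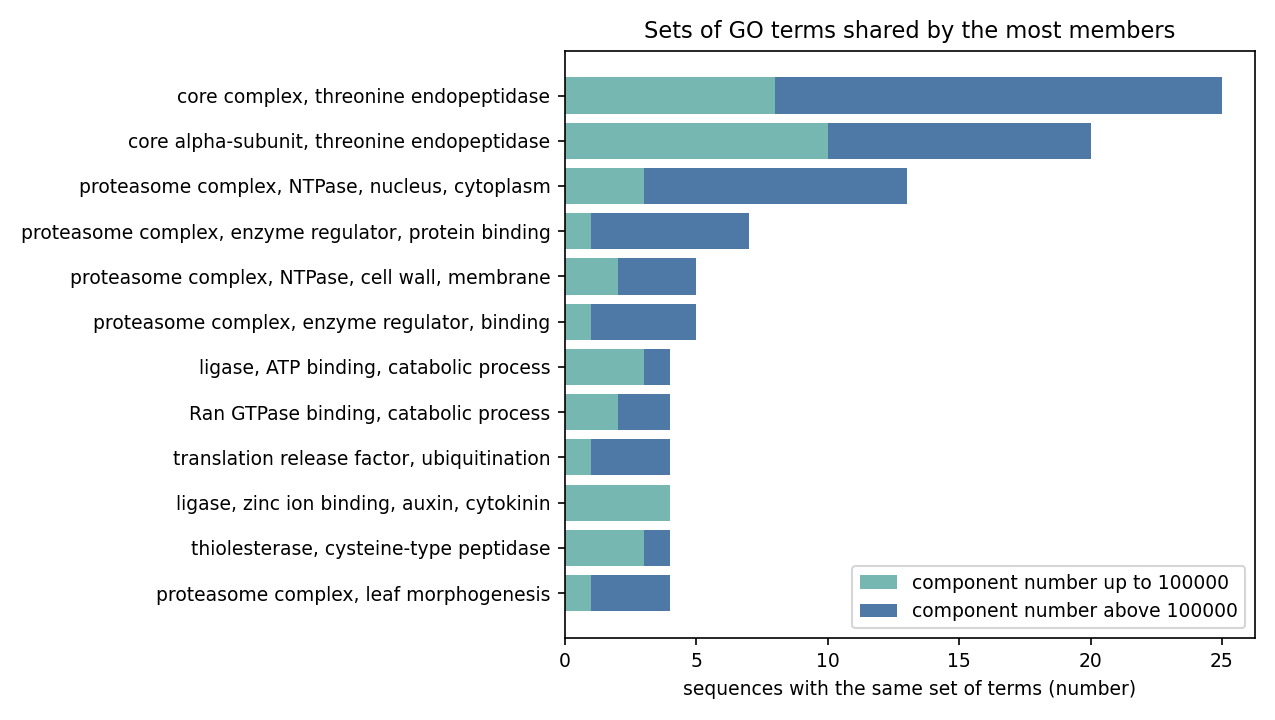
Number of sequences (horizontal axis) with each of the 12 sets of GO terms found on the most members, divided by component number at 100000. The core complex set has 25 sequences (17 above and 8 up to 100000), the alpha-subunit set 20 (10 and 10) and the largest nucleoside-triphosphatase set 13 (10 and 3).

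The members were also described by their identifiers, which start with the number of the Trinity component and end in a number taken here to count the reading frames of a contig. A component number above 100000 was found for 160 members (57.8%, 95% Wilson interval 51.9 to 63.4), compared with 50.3% of all annotated sequences. The members lay on either side of a gap, with 0 between 70000 and 200000, but few sequences of the whole table lay there. The table had 102, with 0.352% of its sequences from 70000 to 100000 and 1.15% from 100000 to 200000. The share above 100000 was 67.8% on the proteasome side (103 of 152, interval 60.0 to 74.7). It was 44.1% for the ligase, conjugation or protease classes only (45 of 102, interval 34.9 to 53.8). By class it was 64.0% for the core particle, 67.1% for the proteasome complex term, 59.1% for proteases, 47.5% for conjugation and 43.6% for ligases. The interval for proteases (38.7 to 76.7) covers both the core particle share and the ligase share. In addition, 7 of the 22 proteases also had the term proteasome complex. Of the 6 core assembly sequences, 2 were above 100000 (33.3%). All 4 regulatory particle sequences were above 100000.

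The reading frame number moved with this division. Its median was 3 above and 10 below among members, and 3 and 13 in the whole table. When the reading frame number was limited to 5 or less, 81.1% of members were above 100000, next to 81.3% of all annotated sequences. In this set the share was 84.9% (interval 75.8 to 90.9) on the proteasome side and 74.0% (interval 60.4 to 84.1) for the other classes only, and these Wilson intervals overlap. The part of the reading frame number in the difference was not tested.

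**Figure D5:**
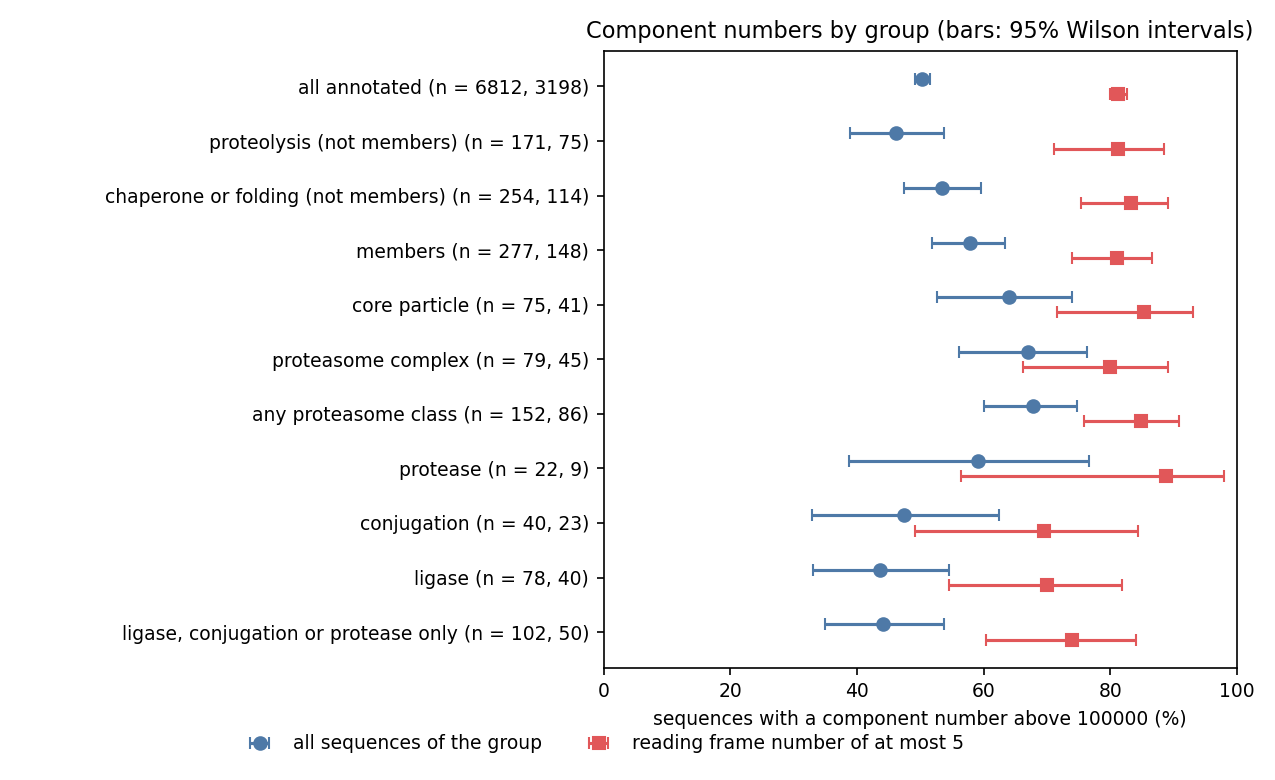
Share of sequences with a component number above 100000 (horizontal axis, in %) by group, for all sequences (circles) and for those whose reading frame number is 5 or less (squares), with 95% Wilson intervals as bars and the number of sequences for each in brackets. For all sequences, the proteasome classes are at 67.8% and the ligase, conjugation or protease classes only at 44.1%, while in the smaller set they are at 84.9% and 74.0%.

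Few members shared a component with another member, with 277 sequences in 267 components next to 6812 in 6164 for the whole table. Identifiers whose seq part exceeds 1 mark further contigs of a component. They belonged to 31 members and to 1540 of the 6812 annotated sequences. Of the 267 components, 8 had more than 1 member, and all 8 had numbers below 100000. The like share over the whole table is not given here, so this cannot be called particular to the set. These 8 components held 18 members, and in 7 of the 8 the members had identical terms. Ligase sequences made up the largest, comp61241_c0 and comp64725_c0, with 3 members each. The others held 2 members, such as comp56159_c1 with proteasome complex, comp58199_c0 with the core particle and comp61771_c0 with ligase terms. Only 1 member was in a component that also had an annotated sequence outside the set.

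Terms that name a plant hormone were listed for 12 members (4.33%) out of 86 sequences in the table (1.26%). The list of hormones for this count was widened after seeing the data, and the treatments of the study used only JA and SA. Jasmonic acid was named for 2 of the 12 members, out of 10 sequences in the table. These members, comp65001_c0_seq1_19 and comp65001_c1_seq1_14, had the cullin-RING complex, SCF complex assembly and auxin, ethylene and jasmonic acid signalling. In *Arabidopsis*, an SCF ligase with a cullin scaffold acts in the perception of jasmonate and auxin. Salicylic acid was named for 0 members and for 10 sequences of the table. Auxin was named for 11 members out of 29 sequences in the table, 6 of the members with ligase terms and 3 with the core assembly term. The 4 members with auxin and cytokinin metabolic process, 3 of them in component comp64725_c0, all had ligase activity, zinc ion binding and plasma membrane. Abscisic acid and ethylene were named for 4 members each, out of 22 and 35 sequences in the table.

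Some stress terms were listed for members of several classes. Of the 106 sequences with cadmium terms, 16 were members, and 11 of these were in the core particle class, 3 of them by the assembly term. Salt stress was named for 7 members out of 33 sequences in the table. Of the 7, 4 were in the core particle class, 3 of them assembly sequences, and 3 had protease terms. Response to heat was listed for 6 members, the assembly sequences described above, out of 56 sequences in the table. A term with the words misfolded protein was listed for 8 sequences of the table and all were members, the same 6 assembly sequences and 2 with binding and conjugation terms. A light term was listed for 1 member, out of 71 sequences in the table. This member, comp65349_c1_seq1_62, listed red, far-red light phototransduction, negative regulation of photomorphogenesis, DNA repair and the CUL4 RING complex.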

How the data were processed

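The authors assembled the clean paired-end reads with Trinity, predicted reading frames with GetORF and assigned GO terms with Blastp and GoPipe. They deposited the result as a table of text in 4 columns (sequence, GO identifier, term name, domain) with 39529 lines, 0 columns of values per sample and no measured unit, so the depth behind a sequence cannot be read from it and no test between conditions was made. Term names were searched for the 3 words regardless of case. Classes followed a set order of words, the first match counting. Terms were counted as listed, without parent terms. Shares have 95% Wilson intervals. The sorting was tested on simulated data. Terms named were all particle terms, the 5 largest of each other class, and a few rarer ones chosen after their values were seen. Sequences named were the 3 with the most matched terms in each class, components with the most members, and examples chosen after their values were seen. The kinds of function within a class were chosen after their values were seen, and members and lists with earlier results of these data known. Alternatives were a count per component, other words, other classes and another boundary. A table of 30548 *Haematococcus lacustris* genes (assembly ASM3014472v1) matched 0 member identifiers, so no gene names or sequences are given. Python 3.11.15, SciPy 1.17.1 and Matplotlib 3.10.9 were used.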

Additional observations from a re-analysis of the deposited data

How the results depend on the processing

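Of 38 values under the listed alternatives, 34 were counts that moved by at most 1.5 times or shares that stayed within the Wilson interval of the reported share. The number of members was 267 with 1 count per component, 273 without regulation terms, 273 without terms on 1 sequence and 303 with wider words. Counting a sequence only in its first class left 9 conjugation and 18 catabolism sequences and 0 for the term in no class, because the earlier classes take them. Counting any membrane term moved the share with membrane from 4.33% to 15.5%. The overlap of the proteasome and ubiquitin sides was 15 with regulation terms counted as ligase terms. The alternatives chosen after seeing the data moved 4 of 4 values. The overlap became 0 with the core and regulatory particle only, since proteasome complex is left out. With reading frame numbers limited to 5 or less, the share above 100000 became 81.1% for members, 84.9% for the proteasome side and 74.0% for the ubiquitin side only, and the cause was not tested. Alternatives meant for levels in each library were not run. No paired analysis was possible because no value belongs to a sample.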

Other observations

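Modifiers related to ubiquitin were named both in and outside the set, which holds 4.07% of the annotated sequences. The signalosome, which removes the modifier NEDD8 from cullins, was named for 8 sequences and 0 of them were members. SUMO was named for 12 sequences, of which 2 were members, the regulatory particle sequences with SUMO binding. NEDD8 was named for 5 sequences with 2 members, both with ligase terms. The word autophagy, which names the other main route of breakdown, was found for 20 sequences with 1 member, and protein folding for 231 with 2 members.

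Some members listed functions outside the pathway beside a matched term. Protein ubiquitination was listed for 4 sequences together with translation release factor activity and GTPase activity, as in comp38401_c0_seq1_2. A proteasome complex term was listed for comp442215_c0_seq1_3 and comp947746_c0_seq1_8 beside ATP-dependent peptidase and serine-type endopeptidase activity and terms of insect egg development. The component comp64896_c0 had 2 sequences with oxygen-dependent oxidoreductase terms, response to hypoxia and the positive regulation of proteasomal breakdown. The member with the most terms, comp59269_c0_seq1_9, had 48, among them histone deacetylase activity, aggresome assembly and polyubiquitin binding. Whether these terms hold for the alga was not tested.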
